A study of Drosophila melanogaster with 17 samples.

Results

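The late labelling times of a small RNA time course in Drosophila were compared with one another: the unoxidised libraries taken after 3, 6, 12 and 24 h of 4-thiouridine (s4U), which are 4 of the 17 libraries of the series. They were chosen by their labels, and the unoxidised library of 0 h served as background only. All of them came from wild-type Schneider 2 (S2) cells, a macrophage-like line of embryonic origin kept in medium with 10% FBS at 25 °C. For the late libraries the medium held 500 µM s4U for the stated time, the background cells received none, and the RNA of all 5 libraries was treated with iodoacetamide (IAA), left without NaIO4 oxidation and selected for 18 to 30 nt. There is 1 library per time and no replicate, so each test of T>C compares a pair of libraries and covers counting error only.

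In animal cells a microRNA (miRNA) hairpin is cut into a duplex of 2 arms. One strand, the guide, stays in an Argonaute protein, where it is usually stable, whereas the other, the passenger or star strand, is expelled and broken down. s4U enters RNA as it is transcribed, and IAA makes the incorporated base read as C, so a T>C mismatch marks a U that was made during the labelling time. While old molecules are replaced by new ones the T>C share of an arm climbs, and it stops climbing once the pool has turned over at a constant supply of s4U.

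Growth was described in 72 miRNA arms of 47 hairpins, the arms of the 135 in the deposited mismatch table that averaged at least 100 RPM (counts scaled to the total of small RNA reads) over the 4 libraries, after 5 copies with the same mature sequence were left out. They comprise 27 passengers and 45 guides, the guide being the arm of its hairpin with more reads. Net T>C is the percentage of reads over U positions of nucleotides 1 to 18 that show C, minus the same percentage at 0 h. It is not the percentage of new molecules. An arm is called levelled where its net T>C at 24 h was under 1.2 times that at 12 h, and rising where it was at least 1.5 times. Under these limits 12 arms had levelled, 35 lay between and 25 were rising.

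The arms below carry the contrasts that follow. They are printed as the deposited hairpin sequences give them, with T for U, 5′ to 3′, at the most frequent read length, and capitals mark the seed (bases 2 to 8), by which a guide chooses its targets. The first 6 had levelled by 24 h: 3 passengers and the 3 guides of that class.
miR-34-3p: cAGCCACTatcttcactgccgcc
miR-980-5p: aGTTTTTCatttggcctggctagc
miR-275-5p: cGCGCTAAtcagtgaccggggct
miR-190-5p: aGATATGTttgatattcttggttg
miR-12-5p: tGAGTATTacatcaggtactggt
miR-1012-3p: tTAGTCAAagattttccccatag
The guides from the hairpins of those passengers, and the neighbours of miR-12 in the Gmap gene, did not level off.
miR-34-5p: tGGCAGTGtggttagctggtt
miR-980-3p: tAGCTGCCttgtgaagggctt
miR-275-3p: tCAGGTACctgaagtagcgcgcg
miR-283-5p: aAATATCAgctggtaattctggg
miR-304-5p: tAATCTCAatttgtaaatgtgag
The remaining arms were rising. The last 4 share the seed ATCACAG of the K-box family, which pairs with the K box of Notch target genes.
bantam-3p: tGAGATCAttttgaaagctgatt
miR-252-5p: cTAAGTACtagtgccgcaggag
miR-33-5p: gTGCATTGtagtcgcattgtc
miR-998-5p: aCTGAATTctcgtgggtctgca
miR-11-3p: cATCACAGtctgagttcttgct
miR-13b-2-3p: tATCACAGccattttgacgagtt
miR-2b-1-3p: tATCACAGccagctttgaggag
miR-2a-1-3p: tATCACAGccagctttgatgagct

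The 4 libraries held 19041816 to 24665859 small RNA reads, of which 51.3 to 54.4% were miRNA reads. Summed over the 72 arms, net T>C was 0.416%, 0.632%, 1.41% and 2.09% at 3, 6, 12 and 24 h, after subtraction of the 0.0415% found at 0 h. Other mismatches did not follow time, but the 6 h library stood apart in them: T>G was 0.0294%, 0.0397%, 0.0271% and 0.0276% at 3, 6, 12 and 24 h, and A>G was 0.04998%, 0.0624%, 0.0466% and 0.0475%. The tests repeat this: T>G was higher at 6 h than at 3 h in 17.9% of all arms tested, and higher at 24 h than at 12 h in 0.794%. Steps that begin or end at 6 h therefore carry this difference between libraries, whose part in them was not tested. All 15 miRNAs listed as typical of S2 cells were measured, at a summed 379665 to 411665 RPM, and the 14 listed for muscle, neurons, gut, ovary or later stages summed to 111 to 155 RPM, of which miR-263a-5p held 80.6 to 108 RPM. Muscle miR-1-3p and neuronal miR-124-3p stayed under 1 RPM. In RNA from a whole culture, fewer cells with a given miRNA and less of it per cell cannot be told apart.

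**Figure D1:**
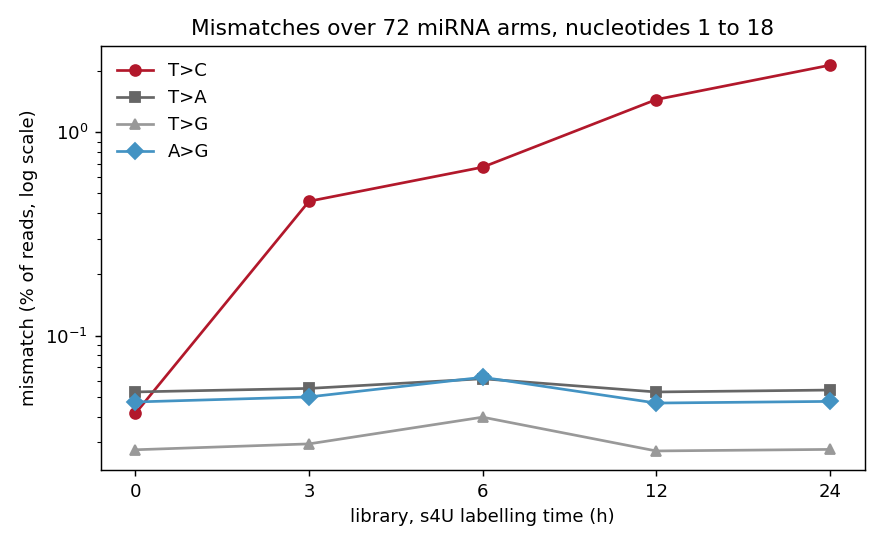
Percentage of reads with each mismatch, summed over 72 miRNA arms (log scale), in the libraries of 0, 3, 6, 12 and 24 h (1 library each, plotted at equal spacing). T>C was higher in each later library and reached 2.14% at 24 h, whereas T>A, T>G and A>G stayed under 0.07% with their highest values at 6 h.

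Most arms were still gaining label between 12 and 24 h. At the background of 66.7% of all 126 arms tested, 67 of the 72 arms had more T>C at 24 h than at 12 h (one-sided Fisher's exact test, Benjamini-Hochberg adjustment over all arms tested, threshold 0.05). These 67 were 22 of 27 passengers and all 45 guides. The 5 arms that did not pass were the passengers miR-980-5p, miR-14-5p, miR-34-3p, miR-275-5p and miR-965-5p. Over the whole interval 70 arms had more T>C at 24 h than at 3 h, at a background of 88.6%, and the exceptions were miR-14-5p and miR-980-5p. For 6 h over 3 h the count was 57, of which 13 were passengers and 44 guides (background 62.4%), and for 12 h over 6 h it was 62, of which 19 were passengers and 43 guides (background 71.8%). miR-14-5p was also the 1 arm that was lower at 6 h than at 3 h (adjusted p = 0.00299, Fisher's exact test; background 0.855%), and at 24 h against 12 h 0.0% of the arms tested passed as lower.

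Passengers and guides ended at close median levels and differed in how they reached them. The median net T>C of the 27 passengers was 1.09%, 1.296%, 1.703% and 2.15% at 3, 6, 12 and 24 h. That of the 45 guides was 0.406%, 0.671%, 1.45% and 2.17% at the same times. Passengers thus already held a median of 48.8% of their 24 h label at 3 h, against 19.9% in guides. Over the 8-fold increase in time, net T>C multiplied by a median of 2.05 in passengers (0.986 to 5.01) and of 5.02 in guides (1.79 to 6.93). On a log-log scale, where a slope of 1 is growth in proportion to time and 0 a constant level, the median slope was 0.36 in passengers and 0.80 in guides.

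**Figure D2:**
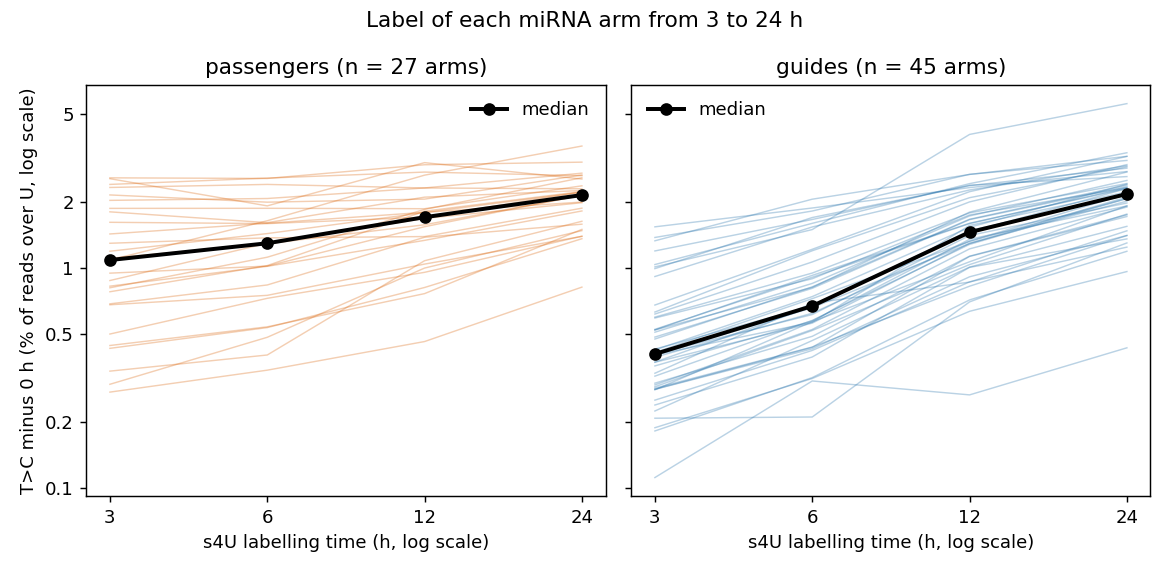
Net T>C (T>C minus 0 h, % of reads over U, log scale) of each arm against labelling time (log scale) for 27 passengers and 45 guides, with the median of each as a black line. Passengers start at a median of 1.09% and end at 2.15%, whereas guides start at 0.406% and end at 2.17%.

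Growth per doubling of time was not the same at each step. In passengers the median ratio was 1.17 for 6 h over 3 h, 1.31 for 12 h over 6 h and 1.302 for 24 h over 12 h. In guides these medians were 1.67, 2.03 and 1.46. Expressed per hour, guides gained a median of 0.0979 percentage points between 3 and 6 h, 0.117 between 6 and 12 h and 0.0548 between 12 and 24 h. The hourly gain of the last step was below that of the step before it in 43 of 45 guides and in 20 of 27 passengers. A rise at every one of the 3 steps was seen in 19 passengers and 44 guides, and the exception among the guides was miR-2c-3p.

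**Figure D3:**
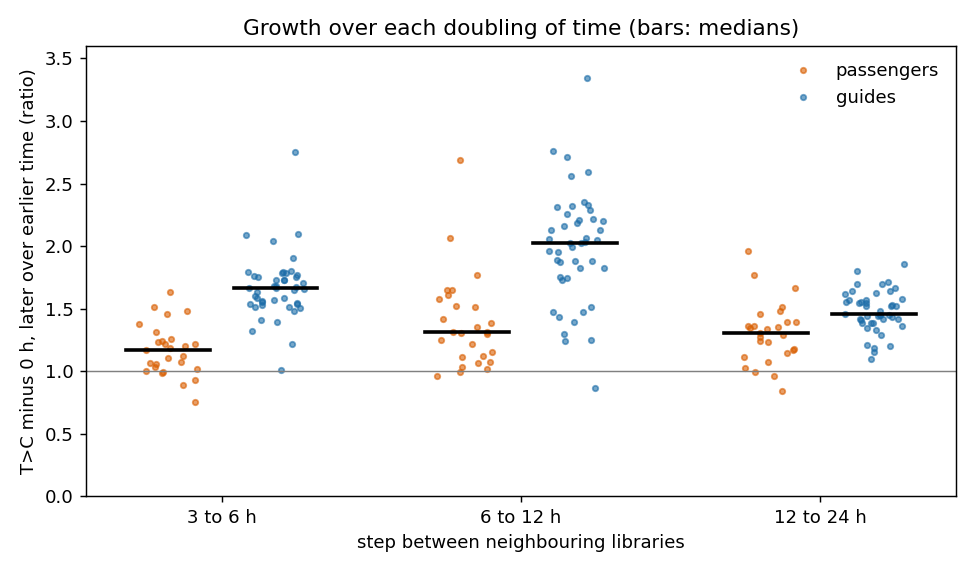
Ratio of net T>C at the later over the earlier time for each of the 3 steps, by strand (27 passengers and 45 guides), with the median as a black bar. Guides lie above passengers at each step by their medians, and both the highest guide median, 2.03, and the widest spread fall on the step that begins at 6 h.

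The same contrast held within hairpins. In 25 hairpins both arms were measured, and they come from the same transcript. The log-log slope was lower in the passenger than in its guide in 24 of the 25, with medians of 0.31 and 0.81. At 3 h the passenger carried more label in 23 hairpins, whereas at 24 h it did so in 11. The ratio of 24 h over 12 h was lower in the passenger in 21 hairpins, with medians of 1.29 in passengers and 1.52 in guides. The exception in slope was miR-9c, whose hairpin lies in an intron of grp: the passenger miR-9c-3p multiplied 4.81-fold between 3 and 24 h and the guide miR-9c-5p 3.19-fold.

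The levelled class held 9 of the 27 passengers and 3 of the 45 guides, or 12 of 72 arms, at a background of 25.4% of the 114 arms of the table with a ratio. Its members already carried much label early. Their median net T>C was 1.67%, 1.85%, 2.32% and 2.57% at 3, 6, 12 and 24 h. At 3 h they thus held a median of 73.4% of their 24 h label, from 43.4% in miR-308-5p to 101% in miR-980-5p. That share is partly set by the class limit, which uses the same 24 h value. In 5 of the 12 the whole counting interval of the ratio lay under 1.2, and in 5 it reached down to 1.

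Among the levelled passengers the flattest was miR-980-5p (chrX:280172-280269, minus strand, intergenic), the partner of miR-980-3p. It carried 2.33%, 2.40%, 2.31% and 2.29% net T>C at 3, 6, 12 and 24 h, and its 24 h value rests on 1640 T>C reads among 69912 reads over U. The lowest value fell at 24 h and the highest at 6 h, and the ratio of 24 h over 12 h was 0.992 (95% counting interval 0.924 to 1.06). Its guide miR-980-3p carried 0.406%, 0.614%, 1.41% and 1.98% at those times, so the guide was lowest where the passenger was already at its level. The abundance of the passenger was 199, 193, 309 and 320 RPM and that of the guide 6087, 6595, 7364 and 8410 RPM, so both were higher in the later libraries while the T>C of the passenger stayed flat. Neither slope of abundance passed the test described below (adjusted p = 0.234 for miR-980-5p and 0.454 for miR-980-3p, edgeR).

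miR-34-3p is the passenger of miR-34, a miRNA known for its role in ageing and neuronal upkeep (chr3R:10100936-10101034, plus strand, an exon of lncRNA:CR43459). It carried 2.40%, 2.56%, 2.73% and 2.63% net T>C at 3, 6, 12 and 24 h, and at none of its 5 U positions was the 24 h value more than 1.04 times the 12 h value. The ratio over all positions was 0.963 (0.913 to 1.02). The guide miR-34-5p carried 0.522%, 0.925%, 1.598% and 2.30% and had not reached its passenger at 24 h. In the hairpin of miR-275 (chr2L:7425795-7425892, plus strand, an exon of lncRNA:CR43857) the passenger miR-275-5p carried 2.57%, 2.56%, 2.95% and 3.03%, and the guide miR-275-3p 0.485%, 0.808%, 1.66% and 2.35%. The passenger grew 1.18-fold and the guide 4.85-fold between 3 and 24 h.

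The lowest ratio of 24 h over 12 h belonged to miR-14-5p, the passenger of miR-14, which acts in fat metabolism and cell death. It carried 2.55%, 1.92%, 3.02% and 2.54% net T>C at 3, 6, 12 and 24 h, which rests on 1 U position, with 21302 reads over it at 24 h. These values move both ways, and although the ratio was 0.842 (0.752 to 0.943), the arm did not pass as lower at 24 h (adjusted p = 0.192, Fisher's exact test). The levelled passengers miR-965-5p, miR-2a-1-5p, miR-308-5p, miR-995-5p and miR-276a-5p had ratios of 1.07, 1.11, 1.15, 1.17 and 1.18. All 5 remained higher at 24 h than at 12 h in value, and miR-965-5p alone of them did not pass the test.

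Only 3 guides fell under the limit, and all 3 had an early start for a guide. miR-190-5p (chr3L:8571799-8571898, plus strand) lies in an intron of rhea, the talin gene. It carried 1.195%, 1.66%, 2.38% and 2.61% net T>C at 3, 6, 12 and 24 h, a ratio of 1.096 (1.03 to 1.16) over the last step. miR-12-5p carried 1.54%, 1.87%, 2.32% and 2.75%, a ratio of 1.18 (1.099 to 1.27). miR-1012-3p (chr3R:26861349-26861407, minus strand, in Lerp) is a mirtron, a hairpin made by splicing in place of Drosha. It carried 1.38%, 1.82%, 2.67% and 3.09%, a ratio of 1.16 (1.03 to 1.301). All 3 still had more T>C at 24 h than at 12 h (adjusted p = 0.00177 for miR-190-5p, 9.36e-06 for miR-12-5p and 0.0131 for miR-1012-3p, Fisher's exact test).

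The ratio of these 3 guides rests on 1 library at 12 h and 1 at 24 h. Growth per doubling was also taken from 6 to 24 h, without the 12 h library. It was 1.25 in miR-190-5p, 1.21 in miR-12-5p and 1.304 in miR-1012-3p, all at or above 1.2. That measure averages the steps from 6 to 12 h and from 12 to 24 h, and it begins at the 6 h library. From 6 to 12 h these guides multiplied 1.24-fold to 1.47-fold, so it cannot show whether growth slowed after 12 h. By that measure 12 arms were again under 1.2, of which 7 were shared with the first set: miR-980-5p, miR-995-5p, miR-14-5p, miR-275-5p, miR-2a-1-5p, miR-965-5p and also miR-34-3p. All 7 are passengers. Arms at or above 1.5 by that measure numbered 42, against 25 rising by the last step, and 23 of the 25 were among them.

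Values ran across the lower limit with no gap. Just inside it lay miR-995-5p at 1.17, miR-276a-5p at 1.18 and miR-12-5p at 1.18, and just outside it miR-999-3p at 1.201, miR-7-5p at 1.21 and miR-184-5p at 1.23. miR-7-5p, a guide that acts in photoreceptor differentiation, resembled the levelled guides in its early level: it carried 1.33%, 2.06%, 2.67% and 3.22% net T>C at 3, 6, 12 and 24 h. At the upper limit miR-988-5p had 1.46, miR-970-3p 1.48 and miR-2a-2-5p 1.48, and miR-9c-3p 1.51, miR-986-5p 1.52 and bantam-3p 1.52 lay just above. The value of miR-970-3p rests on 2 U positions, whose ratios were 1.12 and 1.71.

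**Figure D4:**
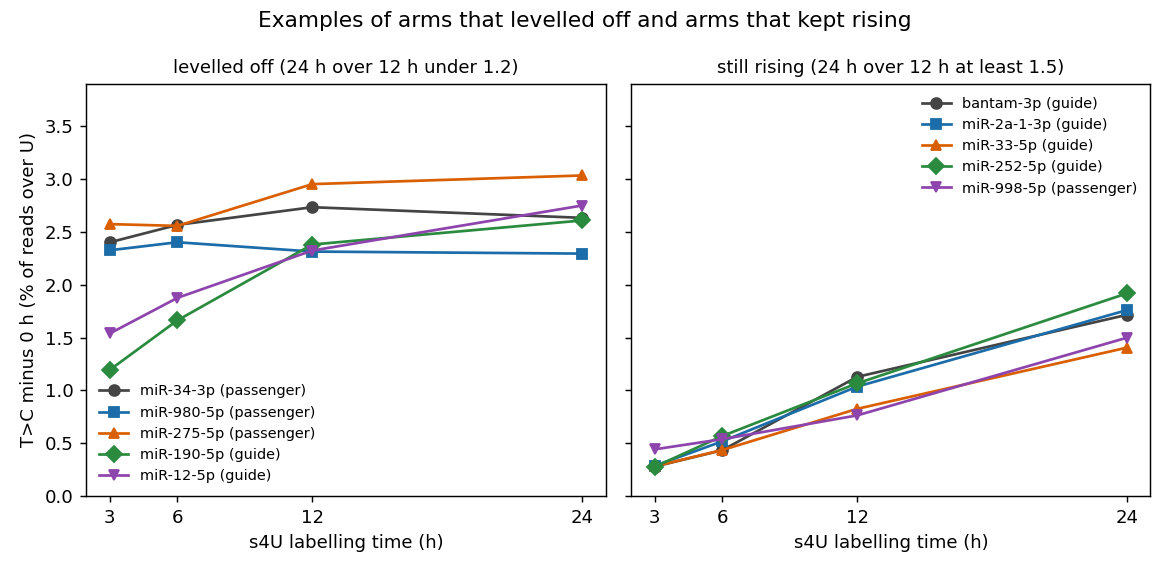
Net T>C (% of reads over U) at 3, 6, 12 and 24 h of 5 levelled arms (left) and 5 rising arms (right), each point 1 library. The levelled passengers start above 2.3% at 3 h, whereas each rising arm starts under 0.45% and keeps climbing to 24 h.

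The rising class held 4 of the 27 passengers and 21 of the 45 guides, or 25 of 72 arms, at a background of 35.1%. Its median net T>C was 0.299%, 0.525%, 1.07% and 1.71% at 3, 6, 12 and 24 h. The early label of these arms lay between 0.111% and 0.522% at 3 h, and that of the levelled arms between 0.687% and 2.57%. Among the 72 arms the levelled and rising classes thus did not overlap at 3 h, a time that did not enter the limits. Arms between the limits ran from 0.238% to 2.15% at 3 h and reached into both ranges. Scarcer arms outside the 72 overlapped at 3 h by their values. The levelled miR-1002-5p (mean 24.2 RPM) carried 0.511% and the rising miR-1012-5p (mean 37.2 RPM) 0.911%. The ratio of miR-1002-5p, 0.986 (0.613 to 1.59), rests on 29 T>C reads at 24 h. Its interval spans both limits, so the class of miR-1002-5p is uncertain. In 13 of the 25 the counting interval of the ratio lay wholly at or above 1.5. All 25 had more T>C at 24 h than at 12 h by the test.

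bantam-3p (chr3L:642208-642288, plus strand, an exon of lncRNA:CR43334) blocks apoptosis through the gene hid and was the most abundant arm, at a mean of 145347 RPM. It carried 0.280%, 0.435%, 1.13% and 1.71% net T>C at 3, 6, 12 and 24 h. With 19477908 reads over U at 24 h its ratio over the last step was narrowly set, at 1.52 (1.51 to 1.53), and at its 6 U positions the ratio ran from 1.38 to 1.61. Its passenger bantam-5p carried 0.680%, 0.751%, 1.04% and 1.39%, so guide and passenger crossed between 6 and 12 h. bantam-3p was also highest in the 6 h library in abundance, at 178688 RPM, against 133548 to 135370 RPM in the other 3.

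miR-252-5p (chr3R:13464219-13464311, minus strand, in an intron of asRNA:CR17025) had the highest ratio over the last step among arms above 1000 RPM. It carried 0.279%, 0.569%, 1.07% and 1.92% net T>C at 3, 6, 12 and 24 h. It multiplied 2.04-fold, 1.87-fold and 1.80-fold (1.74 to 1.85) over the 3 steps. miR-33-5p (chr3L:19797961-19798059, plus strand), which lies in an intron of the lipid regulator SREBP and acts in lipid metabolism, carried 0.284%, 0.437%, 0.826% and 1.405%, with a ratio of 1.7. Its passenger miR-33-3p was one of the 4 rising passengers: it carried 0.431%, 0.535%, 0.815% and 1.36%, with a ratio of 1.67 over the last step, close to that of its guide.

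The highest ratio of all was that of a passenger, miR-998-5p, from an intron of the cell cycle gene E2f1 (chr3R:21621879-21622021, minus strand). It carried 0.444%, 0.540%, 0.764% and 1.498% net T>C at 3, 6, 12 and 24 h. The ratio of 1.96 (1.71 to 2.25) rests on 556 T>C reads at 24 h and 359 at 12 h. Its guide miR-998-3p carried 0.400%, 0.659%, 1.29% and 2.10%, a ratio of 1.63. The other high ratios came from scarce arms with wide intervals: miR-278-3p 1.86 (1.42 to 2.42) and miR-281-2-5p 1.77 (1.13 to 2.77). miR-281-2-5p is a passenger by a narrow margin, at a mean of 105 RPM against 117 RPM in miR-281-2-3p.

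In the K-box family 6 of the 13 listed arms were measured, of which 5 were rising and 1 lay between. Among all arms with a ratio 35.1% were rising. The median ratio of the 6 was 1.599, against 1.42 over all 72 arms. All 6 are guides from 3p arms, and of the 30 measured guides from 3p arms 15 were rising, with a median ratio of 1.499. Of the 5 rising arms 4, miR-2b-1-3p, miR-2a-1-3p, miR-13b-2-3p and miR-2c-3p, share their first 18 nucleotides with another arm. Reads may thus be divided between arms, and the values of these 4 are uncertain. All of the 4 except miR-13b-2-3p have this stretch in common with one another, so the same U positions were counted in each. The count of 5 rising arms and the median ratio of the 6 therefore do not rest on 6 separate sequences. In all families 6 measured arms share their first 18 nucleotides with another arm. Without them 20 of the 66 arms left were rising, against 25 of 72 with them. miR-2a-1-3p carried 0.288%, 0.519%, 1.04% and 1.76% net T>C at 3, 6, 12 and 24 h. miR-11-3p carried 0.322%, 0.577%, 1.28% and 2.07%. Between 3 and 24 h miR-11-3p, miR-2b-1-3p, miR-13b-2-3p and miR-2a-1-3p multiplied 6.44-fold, 5.02-fold, 6.17-fold and 6.11-fold. miR-2c-3p had the lowest level of all arms, 0.111%, 0.306%, 0.264% and 0.433%, and without the 12 h library its growth per doubling was 1.19, under the lower limit. Its abundance was 1218, 2164, 667 and 662 RPM, highest at 6 h.

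miR-308-3p is the sixth K-box arm measured, from an intron of RpS23, and the most labelled arm at 24 h. It carried 1.01%, 1.495%, 4.05% and 5.60% net T>C at 3, 6, 12 and 24 h. Its 5 U positions differed widely at 24 h, from 1.77% to 18.2%, and without the highest of them the arm stood at 2.44%. The ratio of 24 h over 12 h varied less over the same positions, from 1.27 to 1.41. After miR-308-3p the highest 24 h levels were 3.59% in the passenger miR-8-5p, 3.35% in miR-277-3p, a regulator of amino acid breakdown, 3.22% in miR-7-5p and 3.22% in miR-184-3p, a miRNA of the female germline. Of these 5 arms none was levelled or rising.

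Of 6 mirtrons listed, 4 were measured, with miR-1012-3p levelled and the other 3 between the limits. miR-1003-3p carried 0.358%, 0.574%, 1.35% and 1.92% net T>C at 3, 6, 12 and 24 h. miR-1006-3p carried 0.238%, 0.393%, 1.01% and 1.36%. miR-1008-3p carried 0.250%, 0.421%, 0.864% and 1.24%. These 3 multiplied 5.35-fold, 5.70-fold and 4.97-fold between 3 and 24 h, and miR-1012-3p 2.24-fold.

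Guides encoded side by side did not all grow at the same pace. In Gmap on chromosome X (chrX:15507956-15509546, plus strand) the hairpins of miR-283, miR-304 and miR-12 lie in intronic sequence. miR-283-5p carried 0.475%, 0.820%, 1.67% and 2.38% net T>C at 3, 6, 12 and 24 h. miR-304-5p carried 0.294%, 0.525%, 1.22% and 1.89%. Against these, miR-12-5p had more than 3 times the label at 3 h and multiplied 1.79-fold by 24 h, where miR-283-5p multiplied 5.02-fold and miR-304-5p 6.45-fold. The 4 guides in grp (chr2L:16697924-16698834, plus strand) ranged from 3.19-fold in miR-9c-5p to 6.93-fold in miR-79-3p, and from 1.55% to 2.92% in 24 h level.

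In other clusters the guides were closer in some measures than in others. The E2f1 guides miR-998-3p and miR-11-3p stood at 2.10% and 2.07% net T>C at 24 h, with ratios over 12 h of 1.63 and 1.62 and over 3 h of 5.25 and 6.44, although miR-11-3p had a mean of 13078 RPM and miR-998-3p of 2169 RPM. The guides miR-279-3p and miR-996-3p, which share a seed and act in sensory neurons, stood at 2.22% and 2.42%, with ratios over 12 h of 1.42 and 1.36 and over 3 h of 5.51 and 4.06. In the cluster of miR-317, miR-277 and miR-34 the 24 h levels ran from 2.17% to 3.35%, the ratios over 12 h from 1.38 to 1.64 and those over 3 h from 3.23 to 5.53. Cluster partners share a chromosomal site, and transcription from 1 promoter was not measured here.

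Abundance was related to how an arm grew more than to where it ended. Across the 72 arms, Spearman's rho of mean abundance was −0.31, −0.25, −0.06 and 0.11 with net T>C at 3, 6, 12 and 24 h (Pearson's r with log10 abundance −0.44, −0.35, −0.06 and 0.13). With the multiplication from 3 to 24 h rho was 0.53 and r 0.55. These are descriptions over arms that share 4 libraries and their depth, and scarce arms have wider counting errors. Much of the range in abundance separates the strands, since passengers averaged 105 to 5365 RPM with a median of 364, and guides 102 to 145347 RPM with a median of 3513.

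Within each strand the relation was weaker. Among guides rho between abundance and the multiplication from 3 to 24 h was 0.21 (r = 0.31), and between abundance and the 24 h level 0.14 (r = 0.15). Among passengers the same coefficients were 0.39 (r = 0.36) and −0.22 (r = −0.08). Split by abundance into sets of 15, the scarcest guides had a median ratio of 24 h over 12 h of 1.42, the middle ones 1.44 and the most abundant 1.52. The 3 levelled guides all fell in the scarcest set, which also held 5 rising ones, while 7 of the middle and 9 of the most abundant guides were rising. Over all strands, no levelled arm had a mean above 1334 RPM, the value of miR-276a-5p. The 34 arms above that, 5 passengers and 29 guides, were rising or between. The abundance slopes of miR-276a-5p and miR-276b-5p were nearly the same, −0.0318 and −0.0317, so reads may be divided between them and this value is uncertain. The next levelled arm was miR-14-5p at 901 RPM. The bound also depends on the limit of 1.2, since miR-184-5p, at 2074 RPM, had a ratio of 1.23.

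**Figure D5:**
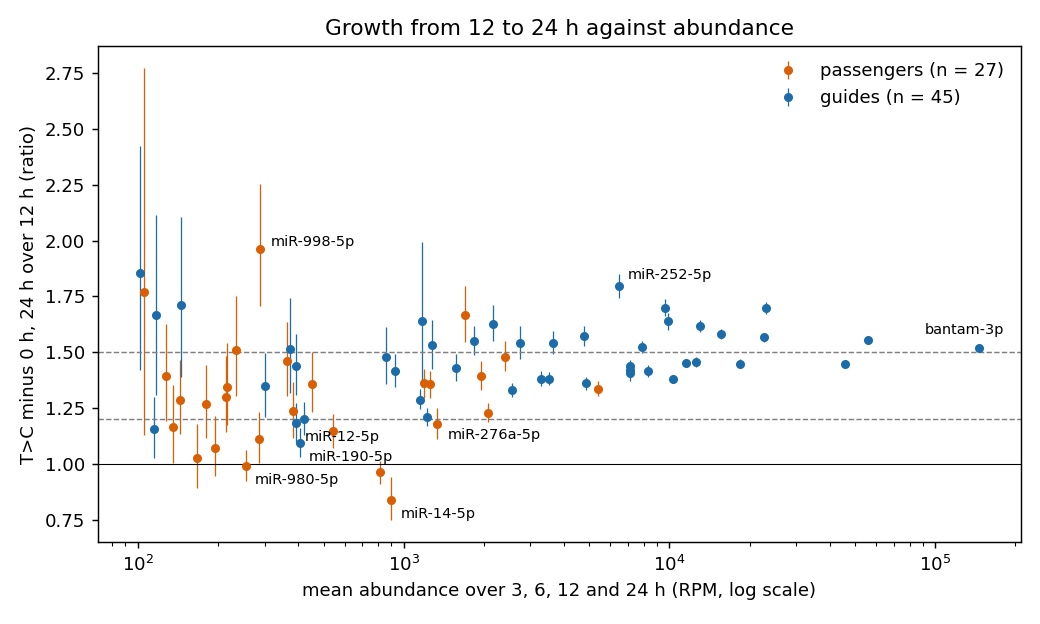
Ratio of net T>C at 24 h over 12 h against mean abundance (RPM, log scale) for 27 passengers and 45 guides, with 95% counting intervals as bars, limits of 1.2 and 1.5 as dashed lines and a ratio of 1 as a solid line. Arms under 1.2 sit at 1334 RPM or less, where passengers and scarce guides mix, and bantam-3p at the far right lies at 1.52.

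Of the measures set against late growth (abundance, number of U positions and early level), the early level had the largest coefficients. Net T>C at 3 h and the ratio of 24 h over 12 h, which share no library but the background, had a rho of −0.81 (r = −0.78) in passengers and −0.72 (r = −0.79) in guides. The order of the guides by label was largely kept over time: rho between 3 h and 24 h was 0.95 and between 12 h and 24 h 0.97. The highest guide was miR-308-3p at 24 h and miR-12-5p at 3 h. The number of U positions in an arm, 1 to 10, had a rho of −0.13 with the ratio of 24 h over 12 h over all arms and of −0.37 in guides.

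Features that the limits did not use were counted in each class. A U at the first base, the base that Argonaute1 favours in guides, was present in 2 of the 12 levelled arms and 18 of the 25 rising ones, and in 4 of 27 passengers, 37 of 45 guides and 41 of all 72 arms. Of the levelled arms 10 of 12 were 5p arms and of the rising ones 8 of 25, set beside 20 of 27 passengers, 15 of 45 guides and 35 of all 72 arms. Both features thus go with the strand, in which the classes also differ. Among guides, 17 of 37 with a first U were rising and 4 of 8 without. Of 5p guides 6 of 15 were rising, and of 3p guides 15 of 30. Among passengers, 0 of 4 with a first U had levelled and 9 of 23 without. Of 5p passengers 8 of 20 had levelled, and of 3p passengers 1 of 7. A relation to class within a strand was not tested. Hairpins inside introns gave 7 of the 12 levelled arms, 16 of the 25 rising ones and 40 of all 72, shares that lie near one another.

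Abundance was tested over the same libraries. A slope on log2 hours, tested over the 4 libraries in all 135 arms with edgeR's quasi-likelihood test, was called in 0.0% of arms in either direction, with 12 arms at an unadjusted p under 0.05 and a lowest adjusted p of 0.234. DESeq2 called 6, of which 3 were higher and 3 lower with time, and edgeR over the 8 unoxidised libraries called miR-980-3p as higher. The test has 2 residual degrees of freedom, and a slope that misses the threshold does not show that abundance was constant.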

How the data were processed

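Wild-type S2 small RNA was sequenced in 17 libraries. The submitters' processing notes name cutadapt 1.7.1, Bowtie 1.2.2, Picard and the dm6 build, with no settings. In the mismatch table, which the authors deposited, counts give the reads with each base at each position of 135 miRNA arms (in its values, mean of at least 5.00 RPM). Another table deposited with it gives small RNA and miRNA read counts per library. Levels under that mean and the most frequent read lengths came from deposited tables of start positions and lengths, whose signal the authors scaled to small RNA reads (RPM). Depth was 10321559 to 13199979 miRNA reads.

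T>C was summed over U positions of nucleotides 1 to 18, and the 0 h library was subtracted. Arms needed 100 RPM; tests needed 1000 reads over U. Each U of a read was counted apart, and reads are not independent molecules, so exact Clopper-Pearson 95% intervals, the intervals of ratios and Fisher's exact tests cover counting error only. Abundance is counts at nucleotide 1. Hairpins (84 of 86) were placed by FlyBase identifier in the BDGP6 annotation, whose coordinates are those of dm6, 1-based, and are those of the hairpin. Pairs of arms share their hairpin; clusters are hairpins within 10 kb on 1 strand. Slopes of abundance used edgeR 4.0.16 (TMM, filterByExpr) and DESeq2 1.42.0 in R 4.3.3, and the rest Python 3.11.15 with scipy 1.17.1. Both tests were also run on simulated data. These were easier than the real data, with a lower dispersion for abundance and independent counts for T>C.

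The members, lists, limits and rule for named arms were chosen with earlier results of these data known. The rule took, among arms of at least 100 RPM, the 10 most abundant, the 5 highest and 5 lowest by 24 h level and by the ratios over 12 h and 3 h, the 3 nearest each limit, both arms of the 5 most abundant hairpins, the K-box and mirtron lists and clusters; miR-980-3p, miR-33-3p and the other arms named outside it were chosen after their values were seen.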

Additional observations from a re-analysis of the deposited data

How the results depend on the processing

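No paired analysis was possible because each time has 1 library and the groups share only the replicate number 1. Of 133 recomputed main results, 114 kept their value within the limits set and 19 moved. Counts of arms were compared by size and not as shares. A move at another RPM minimum thus partly reflects the number of arms left. Among those that moved 1, a correlation in guides at 1000 RPM, changed sign. Part of the agreement was fixed in advance. Equal weight for U positions repeated every main value, and leaving out the abundance filter changed no arm tested. The number of arms higher at 24 h than at 12 h does not use the background, so changing the background could not move it. Without background subtraction the guides' median of 24 h over 3 h was 4.65. At a minimum of 20 RPM 20 of 94 arms had levelled, against 12 of 72, and rho of abundance and 24 h level in guides was 0.28. At 1000 RPM 41 of 41 arms were higher at 24 h than at 12 h, against 67 of 72, and 1 had levelled. The passengers' median of 24 h over 3 h was then 3.01, and that rho was 0.0096 over all arms and −0.0749 in guides. Limits of 1.1 and 1.4 gave 6 levelled and 39 rising arms, limits of 1.3 and 1.6 gave 19 and 13. Counting reads with any T>C gave a rho of 0.0070 in guides. Without the 12 h library, growth per doubling from 6 to 24 h gave 12 arms under 1.2 and 42 at or above 1.5. Its medians were 1.29 in passengers and 1.79 in guides, and it includes the step from 6 to 12 h. This alternative and the count of reads with any T>C were added after seeing the data. Leaving out 1 library at a time, the median log-log slope ran from 0.31 to 0.37 in passengers and from 0.78 to 0.88 in guides, and abundance slopes called from 0 to 3 (3 without the 12 h library); DESeq2 called 6 and a slope over 8 unoxidised libraries 1, miR-980-3p. Among named arms 745 of 882 values stayed within their counting error, a count that also includes equal weight. Net T>C at 24 h moved by over 1.5 times in miR-308-3p (2.44% without its highest U position), miR-970-3p (1.77%) and miR-79-3p (1.00%, also with nucleotides 2 to 18). The ratio of 24 h over 12 h moved by over 1.5 times in none, but a smaller move can change the class. In miR-970-3p it fell from 1.48 to 1.12, under the lower limit, without the highest U position. Depth limits the scarcest arms: miR-281-2-5p had 5670 reads over U in its smallest library.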
